A study of Erigeron canadensis with 32 samples.

Results

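Aquaporin genes were followed in leaves of horseweed (Erigeron canadensis) sprayed with synthetic auxin herbicides. A gene was taken as an aquaporin when the description of its best Arabidopsis thaliana hit held the words aquaporin, plasma membrane intrinsic, tonoplast intrinsic, NOD26-like or intrinsic protein, which found 42 of the 54498 genes in the count table. No expression value enters that rule, but it was chosen with earlier results of these data known. By best hit, 13 of the 42 fell in the plasma membrane intrinsic proteins (4 PIP1 and 9 PIP2 genes), 13 in the tonoplast intrinsic proteins (TIP), 13 in the NOD26-like intrinsic proteins (NIP) and 3 in the small basic intrinsic proteins (SIP). A hit names the closest A. thaliana protein only, and several horseweed genes shared one.

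The samples were leaves of a glyphosate-resistant biotype at the rosette stage, and this biotype was common to every group. Plants were sprayed with water, with the dimethylamine salt of 2,4-D, with the diglycolamine salt of dicamba or with halauxifen-methyl, and a non-ionic surfactant was in every spray including the water. Leaves were taken at 1 or 6 h after treatment (HAT), which gave 8 groups of 4 libraries, each from 1 leaf of a separate plant. The herbicides were at commercial field rates that differed, so that compound and rate cannot be told apart between them, and a single leaf of a single biotype limits what the groups stand for.

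Aquaporins are channels of the major intrinsic protein superfamily that sit as tetramers in a membrane and let water, and in some members small neutral solutes or gases, pass down a gradient. PIP proteins work in the plasma membrane. In maize and A. thaliana the PIP2 proteins are efficient water channels, while PIP1 proteins reach the plasma membrane largely in heterotetramers with PIP2. TIP proteins work in the membrane of the vacuole, NIP proteins carry solutes such as boric acid, silicic acid or glycerol besides water, and SIP proteins of A. thaliana lie in the endoplasmic reticulum. In leaves, PIP and TIP channels are known for their part in the flow of water from the veins through mesophyll cells.

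Library totals ran from 12588842 to 29111958 counts, with a median of 18168133.5. Levels are given as CPM, the counts relative to library totals scaled by the trimmed mean of M values (TMM). Replicate 3 of dicamba and replicate 3 of halauxifen-methyl at 6 HAT, the shallowest libraries of their groups with 14156290 and 13861040 counts, stood apart from their mates in 4 of the aquaporin genes described below. Calls of single genes that rest on these libraries are given with and without them, while summed levels include them. GH3.1 (HW_8261_g), an auxin-conjugating enzyme gene induced by auxin, stood at 1829 and 2726 CPM in them, against 0.2 to 1.7 CPM in the 4 water libraries of 6 HAT. The dicamba libraries of 6 HAT ranged from 1829 to 4119 CPM in this gene, so replicate 3 was the lowest, and those of halauxifen-methyl from 1972 to 2955 CPM. Of the markers of leaf cell types, light-harvesting LHCB2.1 reached 627963 counts in a library, whereas both genes with RBCS1A as their hit were at 0 throughout.

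Aquaporin transcripts were concentrated in few genes. Of the 42 genes, 15 had no count in any library, 3 more never passed 3 counts in a library, and 18 passed the filter on low counts in at least 1 comparison. A count of 0 allowed a level of up to 0.113 CPM in the deepest and 0.284 CPM in the shallowest library (3 counts, counting error only). The 9 genes with counts that were never tested stayed at or under 4.43 CPM. Averaged over the 32 libraries, 3 genes held 78.3% of the CPM summed over the 42 genes: HW_44857_g (best hit TIP1;3), with 39.7% by itself, and HW_30067_g and HW_46688_g (both with PIP1;4 as their hit). These 3 genes ranked 43, 75 and 94 by mean CPM among the 28913 genes with a count. That sum leaves out HW_7586_g, a TIP2;1 hit outside the rule that is described below. In water at 6 HAT HW_7586_g averaged 3101 CPM, against 1605 CPM for HW_30067_g. HW_44857_g is a 2-exon model of 759 coding bases with no start codon, so its first exon may be incomplete, and the PIP1 models have 6 exons each, with 1002 and 1053 coding bases.

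Per kilobase of coding sequence, HW_44857_g stood highest of the 42 genes in water leaves at 6 HAT with 4368 ± 670 CPM per kb (SD, n = 4). HW_30067_g followed with 1602 ± 163 and HW_46688_g with 1292 ± 111 CPM per kb, and none of these 3 genes overlapped its neighbour in any water library. A middle tier of PIP2 genes came next: HW_6580_g (PIP2;4 hit) at 546 ± 75.2, HW_9282_g (PIP2;7 hit) at 514 ± 42.6 and HW_2182_g (PIP2;2 hit) at 444 ± 60.4 CPM per kb. Libraries of these 3 genes overlapped, so their order among themselves was not set. Below them, with no overlap, lay HW_40390_g (TIP2;3 hit), HW_34899_g (another PIP1 gene) and HW_13409_g (PIP2, with the same hit as HW_6580_g) at 212 ± 69.0, 182 ± 79.7 and 178 ± 46.7 CPM per kb, which again overlapped each other. The model HW_13409_g has 13 exons and 1962 coding bases, against 3 exons and 858 bases in HW_6580_g, so that reads of a neighbouring gene in a merged model may be among its counts. The most abundant NIP and SIP genes, HW_7358_g (NIP5;1 hit, a boric acid channel in A. thaliana) and HW_17102_g (SIP2;1 hit), stood at 7.94 and 7.24 CPM per kb.

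Members without counts were in part models with a twin, taken as another model with the same exon and intron lengths. Among the aquaporin models of 3 or more exons, 8 formed 4 such pairs, with hits to NIP5;1, PIP2;2, PIP2;7 and TIP1;1, and all 8 were at 0 in all 32 libraries. Of the 31 aquaporin models of 3 or more exons with no such twin, 7 (22.6%) were at 0. The same contrast held over the whole table, where 2608 of 3732 models with a twin (69.9%) and 14875 of 35729 without one (41.6%) had no count. How reads that fit more than 1 place were counted is not given in the sources used here, and the part of that step in these zeros was not tested. The other members at 0 were 3 hits to TIP3;1 and 2 to TIP5;1, known in A. thaliana from seeds and pollen, and 1 hit each to NIP1;2 and SIP2;1.

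At 6 HAT summed aquaporin transcripts were lower after each of the herbicides, and with all libraries no aquaporin gene was called higher than in water. Summed over the 42 genes, the level in water leaves was 8188 ± 499 CPM (SD, n = 4). It was 4641 ± 500 CPM under 2,4-D, 3970 ± 338 CPM under dicamba and 4882 ± 839 CPM under halauxifen-methyl, which is 56.7%, 48.5% and 59.6% of water. All 12 herbicide libraries lay below all 4 water libraries, whose lowest sum was 7819 CPM and which are the same in each comparison. Of the PIP1, PIP2 and TIP sums, that of PIP2 had the largest relative loss after 2,4-D and dicamba, to 39.9% and 41.0% of water, and stood at 42.6% after halauxifen-methyl. Replicate 3 is included there, with a PIP2 sum of 960 CPM after dicamba against 490 to 543 CPM in its mates. After halauxifen-methyl it had 843 CPM, against 561 to 649 CPM. PIP1 sums came to 61.7%, 52.9% and 44.3% of water after 2,4-D, dicamba and halauxifen-methyl, and TIP sums to 59.1%, 47.5% and 80.5%. The TIP sum leaves out the TIP2;1 hits outside the rule, which came to 38.6%, 37.2% and 39.0% of water. The scarce NIP and SIP genes, at 13.3 and 5.7 CPM in water, did not share this fall throughout. NIP sums came to 135.7%, 87.3% and 84.5% of water, and SIP sums to 166.5%, 142.6% and 154.1%. Whole leaves were sampled, so fewer cells of a type and less RNA per cell cannot be told apart.

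**Figure D1:**
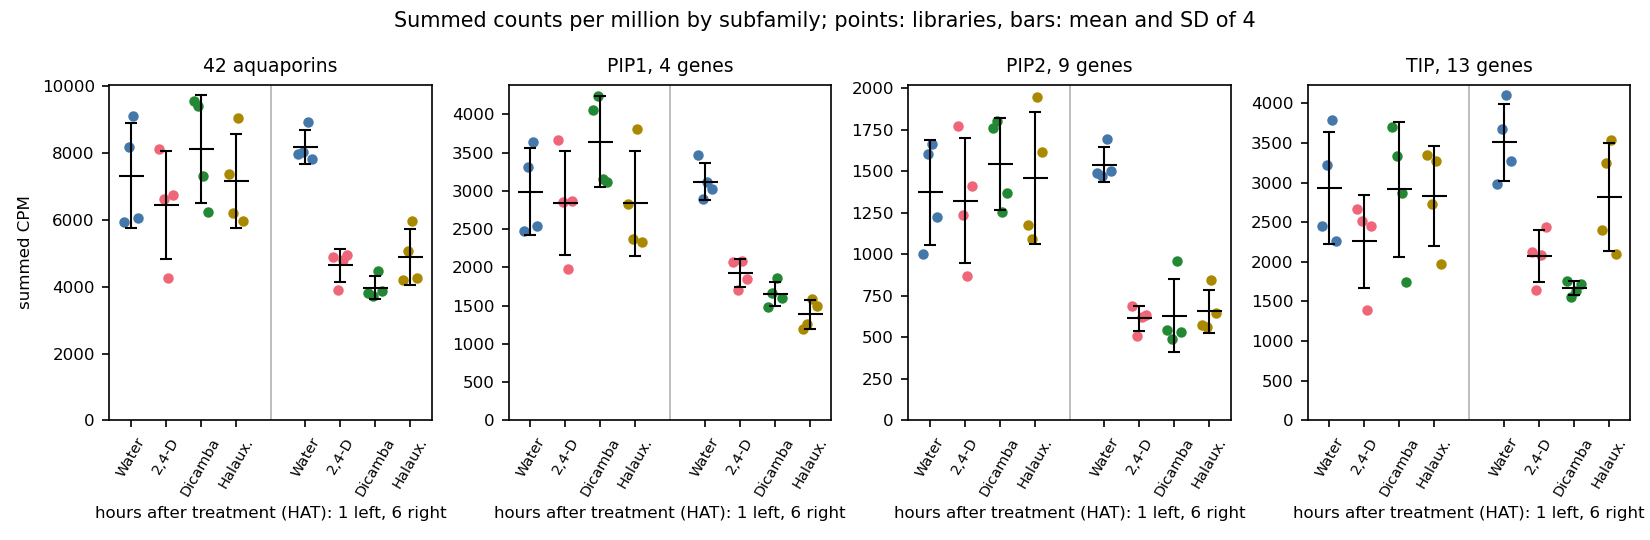
Summed CPM of all 42 aquaporin genes and of the PIP1, PIP2 and TIP genes (vertical axis, from 0) in each library (points) by treatment at 1 HAT and 6 HAT, with bars for the mean and SD of 4 libraries (Halaux. is halauxifen-methyl). At 6 HAT the 4 water libraries lie between 7819 and 8923 CPM for all 42 genes and every herbicide library lies below them, while at 1 HAT the groups overlap.

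In the quasi-likelihood test of edgeR, with p adjusted by Benjamini-Hochberg over all genes tested, 7 of the 16 aquaporin genes tested fell after 2,4-D at 6 HAT, where 19.7% of all genes were called, 10.3% higher and 9.41% lower. After dicamba 4 of 16 fell (9.6% of all genes called, 5.64% higher and 3.96% lower), and after halauxifen-methyl 5 of 15 fell (14.7% called, 8.55% higher and 6.13% lower). The median log2 fold change of the tested members was −0.55 (2,4-D), −0.66 (dicamba) and −0.57 (halauxifen-methyl), beside medians of 0.02, 0.06 and 0.05 over all genes tested. Of the 8 genes that fell after at least 1 herbicide, 3 did so after all 3 herbicides: HW_30067_g, HW_2182_g and HW_13409_g. The 3 comparisons share the water libraries, so their values are set side by side and no overlap between them is taken as a result. The study of these data had already listed the hits PIP2;4 and PIP2;2 (as PIP2B) among hormone-response genes lowered by all 3 herbicides at 6 HAT. That list names the hits and not the horseweed genes behind them.

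**Figure D2:**
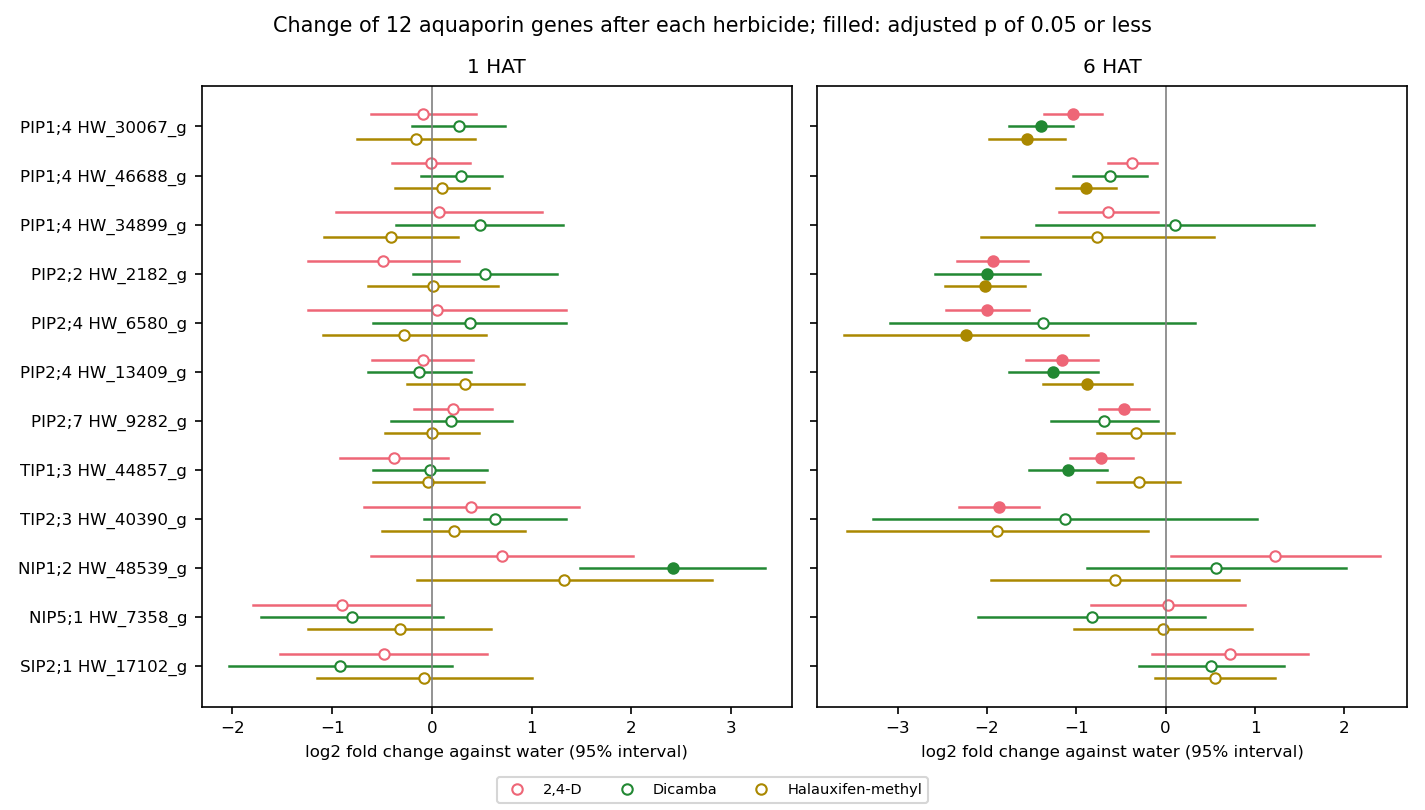
Log2 fold change against water (horizontal axis, with the 95% interval of edgeR's fit) of the 12 aquaporin genes named by rule, at 1 HAT (left) and 6 HAT (right), one point per herbicide and filled where the adjusted p was 0.05 or less. At 1 HAT 1 point is filled, HW_48539_g after dicamba at 2.41, and at 6 HAT all 16 filled points lie below 0.

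The PIP1 gene HW_30067_g, whose A. thaliana hit carries water and CO2, showed the plainest fall. Its level in water leaves at 6 HAT was 1834.8, 1472.7, 1606.7 and 1506.5 CPM in replicates 1 to 4. The 2,4-D libraries had 904, 631, 847 and 743 CPM, those of dicamba 614, 581, 635 and 600.5 CPM, and those of halauxifen-methyl 446, 483, 644 and 633 CPM. No herbicide library reached the water range, and the 4 dicamba libraries lay closest together. The level was 2.05-fold lower after 2,4-D (log2 fold change −1.03, SE 0.15, adjusted p 0.000391), 2.63-fold lower after dicamba (−1.39, SE 0.16, adjusted p 0.000275) and 2.93-fold lower after halauxifen-methyl (−1.55, SE 0.19, adjusted p 0.000549).

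The other abundant PIP1 gene, HW_46688_g, fell less. Water libraries at 6 HAT held 1525, 1305, 1354 and 1256.5 CPM, and halauxifen-methyl libraries 712, 750.4, 740.3 and 758 CPM, a range far narrower than in water. That fall was 1.85-fold (log2 fold change −0.89, SE 0.15, adjusted p 0.00362). Values were 1056, 962, 1129 and 1037 CPM after 2,4-D and 804, 1039, 701 and 954 CPM after dicamba. These also lay below every water library, but the fold changes of −0.37 and −0.62 (log2) did not pass the test (adjusted p 0.0586 and 0.0644), while DESeq2 called both (adjusted p 0.0188 and 0.0162), and the 2,4-D difference passed without water replicate 4 (adjusted p 0.0337).

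The less abundant PIP1 gene, HW_34899_g, varied widely within groups. It had 108.3, 112.8, 151.2 and 256.4 CPM in water at 6 HAT and 106.5, 108.2, 108.6 and 74.4 CPM after 2,4-D. After dicamba 3 libraries had 62.4, 47.4 and 45.7 CPM and replicate 3 had 524.9 CPM, and after halauxifen-methyl replicate 3 again was highest with 204.7 CPM, against 33.5, 25.5 and 108.3 CPM. None of the comparisons with water at 6 HAT called it (adjusted p 0.105, 0.964 and 0.48), although it passed after 2,4-D without water replicate 1 (adjusted p 0.0284).

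Among PIP2 genes, HW_2182_g had nearly the same fall after each herbicide. Levels in water at 6 HAT were 383, 385, 453 and 325 CPM. They were 84.0, 77.9, 112.3 and 127.5 CPM after 2,4-D, 60.05, 78.0, 155.0 and 94.6 CPM after dicamba, and 89.9, 89.3, 132.9 and 74.4 CPM after halauxifen-methyl. The highest herbicide library, replicate 3 of dicamba, was still below the lowest water library. The falls were 3.83-fold (log2 −1.94, SE 0.18, adjusted p 2.04e-05), 3.98-fold (−1.99, SE 0.27, adjusted p 0.000684) and 4.05-fold (−2.02, SE 0.20, adjusted p 0.00016) after 2,4-D, dicamba and halauxifen-methyl.

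The PIP2 gene HW_13409_g had 248.7, 400.4, 448.5 and 297.8 CPM in water at 6 HAT. After 2,4-D it had 168.1, 144.0, 132.1 and 173.9 CPM, and after dicamba 137.1, 166.3, 110.6 and 162.7 CPM, with no overlap with water in either. It was 2.24-fold lower after 2,4-D (log2 −1.16, SE 0.18, adjusted p 0.00084) and 2.39-fold lower after dicamba (−1.26, SE 0.22, adjusted p 0.00411). Halauxifen-methyl libraries had 193.4, 161.4, 253.4 and 157.9 CPM, and replicate 3 reached into the water range. That fall was 1.84-fold (log2 −0.88, SE 0.22, adjusted p 0.0252). Its call was lost without water replicate 2 or 3 or halauxifen-methyl replicate 1, 2 or 4 (adjusted p 0.0532 to 0.0823).

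The PIP2 gene with the same hit, HW_6580_g, had 502, 392, 441 and 538 CPM in water at 6 HAT. All 2,4-D libraries were far below, with 167.2, 91.2, 126.2 and 83.0 CPM (3.99-fold lower, log2 −1.996, SE 0.21, adjusted p 4.99e-05). After dicamba 3 libraries had 65.6, 30.4 and 43.1 CPM while replicate 3 had 593 CPM, above every water library. After halauxifen-methyl replicates 1, 2 and 4 had 30.5, 32.8 and 77.4 CPM and replicate 3 had 263 CPM. With all libraries the gene was not called after dicamba (log2 −1.38, SE 0.78, adjusted p 0.376) and was called after halauxifen-methyl (−2.24, SE 0.61, adjusted p 0.0344). Without replicate 3 it was 9.94-fold lower after dicamba (log2 −3.31, SE 0.27, adjusted p 3.68e-05) and 9.997-fold lower after halauxifen-methyl (−3.32, SE 0.37, adjusted p 0.000591). The halauxifen-methyl call was lost without any other single library of that comparison (adjusted p 0.0542 to 0.0804).

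HW_9282_g, also a PIP2 gene, is a model of 653 coding bases with no start codon. It fell slightly after 2,4-D, from 353.5, 294.5, 352.0 and 342.4 CPM to 267.5, 194.9, 253.8 and 251.5 CPM (1.38-fold lower, log2 −0.47, SE 0.13, adjusted p 0.025). The call was lost without water replicate 3 or 2,4-D replicate 2, 3 or 4 (adjusted p 0.0512 to 0.0778). Dicamba libraries had 279.8, 213.5, 100.7 and 229.9 CPM, all below water but not called (adjusted p 0.171), and halauxifen-methyl libraries had 258.6, 277.1, 193.4 and 338.5 CPM, which overlapped water.

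**Figure D3:**
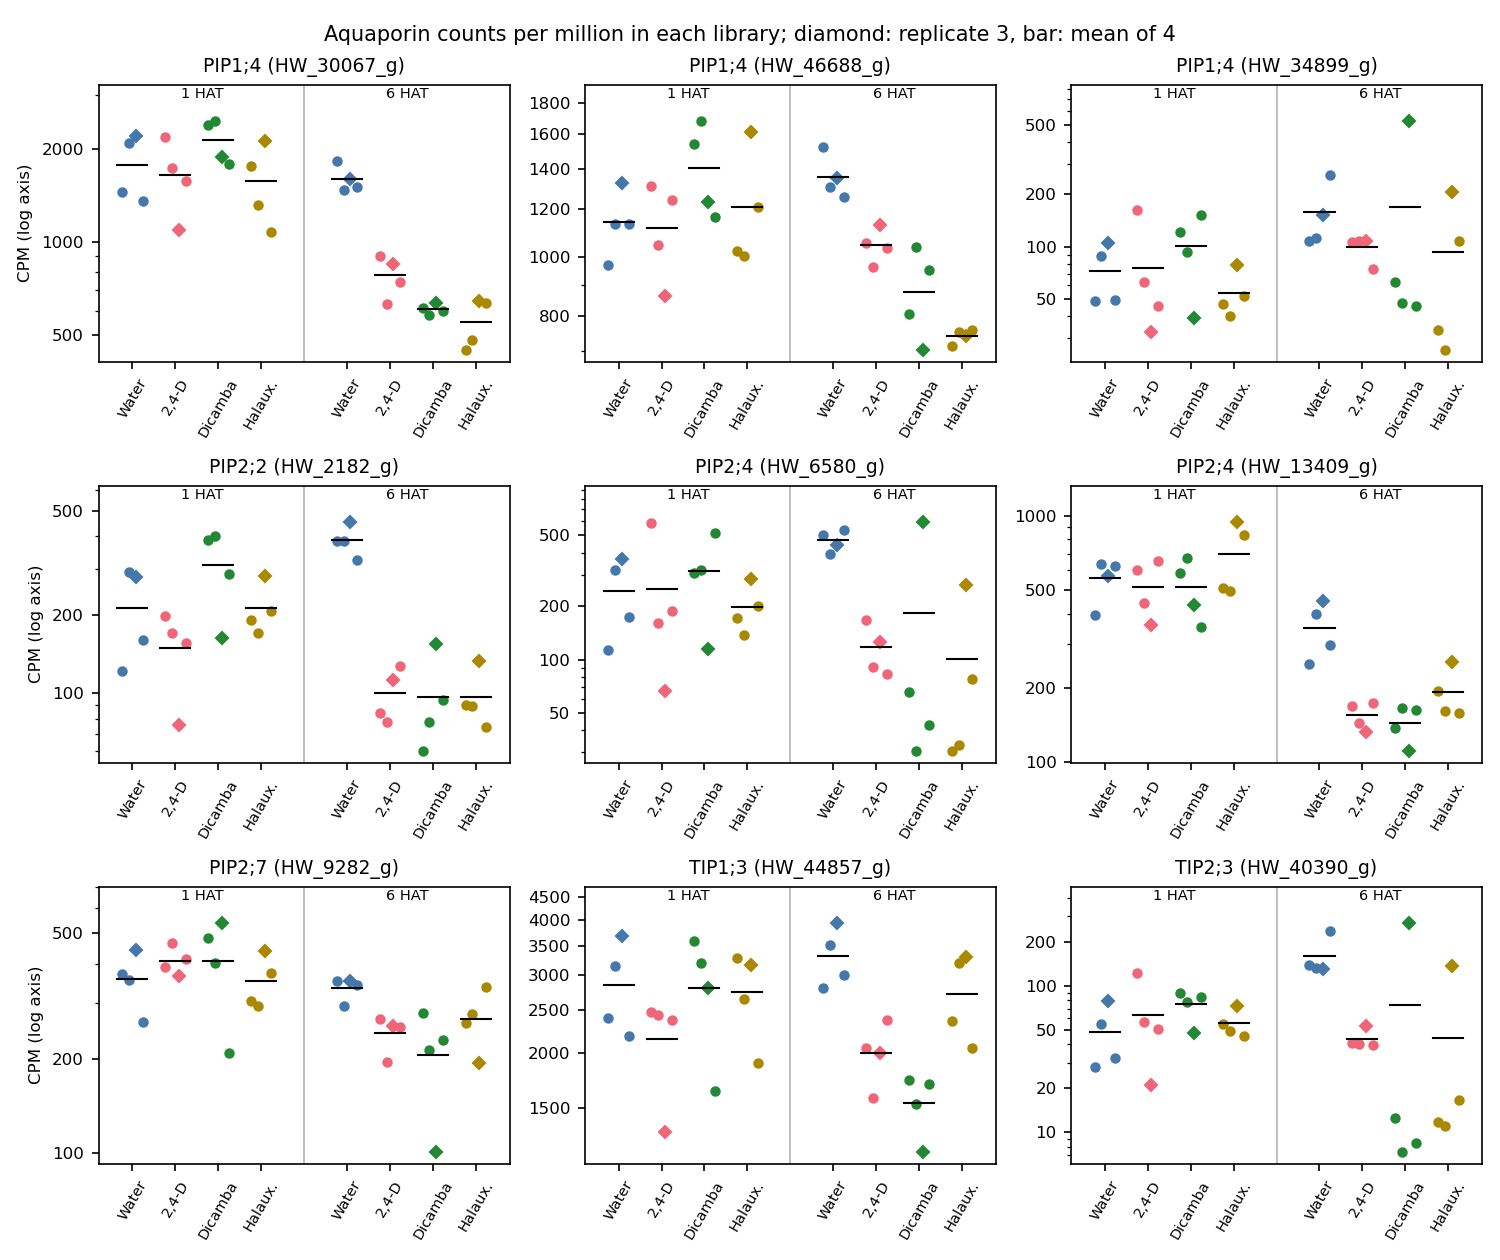
CPM (vertical axis, log scale) of the 9 aquaporin genes named by rule with a mean above 30 CPM, in each of the 32 libraries by treatment at 1 HAT (left of the line) and 6 HAT (right). Diamonds are replicate 3, circles the other replicates and bars the mean of 4, and Halaux. is halauxifen-methyl. HW_30067_g, HW_2182_g and HW_13409_g drop after each herbicide at 6 HAT, while the diamonds of dicamba and halauxifen-methyl stand above their mates in HW_34899_g, HW_6580_g and HW_40390_g.

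Of the TIP genes, HW_44857_g, the most abundant of the 42 genes, fell after 2,4-D and dicamba. The A. thaliana hit is known as a pollen channel, so the hit says little of tissue here. Water leaves at 6 HAT had 2807.8, 3517.8, 3932.4 and 3003.7 CPM, 2,4-D leaves 2049.6, 1580.8, 1997.2 and 2368.9 CPM, and dicamba leaves 1733, 1531, 1192 and 1696.5 CPM. Neither herbicide group overlapped water, and the falls were 1.65-fold (log2 −0.72, SE 0.16, adjusted p 0.00786) and 2.13-fold (−1.09, SE 0.20, adjusted p 0.00463). After halauxifen-methyl the libraries had 2365, 3193, 3290.0 and 2052 CPM, of which replicates 2 and 3 lay inside the water range and replicates 1 and 4 below it, inside the 2,4-D range. The difference of −0.30 (log2, 95% interval −0.76 to 0.17, adjusted p 0.429) did not pass the test.

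HW_40390_g, another TIP gene, had the widest spread of all. Water leaves at 6 HAT had 138.4, 132.1, 129.9 and 237.1 CPM and 2,4-D leaves 40.8, 40.1, 53.0 and 39.4 CPM, which is 3.64-fold lower (log2 −1.86, SE 0.20, adjusted p 5.84e-05). Dicamba replicates 1, 2 and 4 were at 12.6, 7.3 and 8.5 CPM and halauxifen-methyl replicates 1, 2 and 4 at 11.8, 11.1 and 16.7 CPM, lower than any 2,4-D library. Replicate 3 went the other way with 268 CPM after dicamba and 137 CPM after halauxifen-methyl. With these libraries neither comparison was called (log2 −1.12, SE 0.98, adjusted p 0.622 after dicamba, and −1.89, SE 0.76, adjusted p 0.137 after halauxifen-methyl). Without them the gene was 16.5-fold lower after dicamba (−4.05, SE 0.30, adjusted p 2.1e-05) and 12.1-fold lower after halauxifen-methyl (−3.60, SE 0.30, adjusted p 0.000134).

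Replicate 3 was more than 3 times the mean of its mates in 4 of the genes described, in both groups. The ratio of replicate 3 to the mean of the other 3 libraries was 28.4 after dicamba and 10.3 after halauxifen-methyl for HW_40390_g, 12.8 and 5.60 for HW_6580_g, and 10.1 and 3.67 for HW_34899_g. For the TIP gene with the same hit as HW_40390_g, HW_5153_g, which was chosen after its values were seen, it was 10.3 and 3.27. The excess was not confined to these genes: HW_2182_g also had its highest library of the group in replicate 3 of both, at 155.0 CPM against 60.05 to 94.6 CPM in the other dicamba libraries and 132.9 CPM against 74.4 to 89.9 CPM in the other halauxifen-methyl libraries. HW_30067_g was at its group's highest there too, by little (635 against 581 to 614 CPM, and 644 against 446 to 633 CPM). HW_13409_g was highest in halauxifen-methyl replicate 3 (253.4 against 157.9 to 193.4 CPM) and lowest in dicamba replicate 3, where HW_46688_g, HW_9282_g and HW_44857_g were also at their lowest of the group. Genes at least 4 times above each of their mates made up 1.55% of 17368 genes in dicamba replicate 3, against 1.79% in dicamba replicate 2, and 0.553% in halauxifen-methyl replicate 3, against 0.818% in replicate 4 of that group. The first 3 of these genes also had their highest library in common in 6 of the 8 groups, and all 4 did in 4 of the 8, a pattern noticed after the values were seen.

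**Figure D4:**
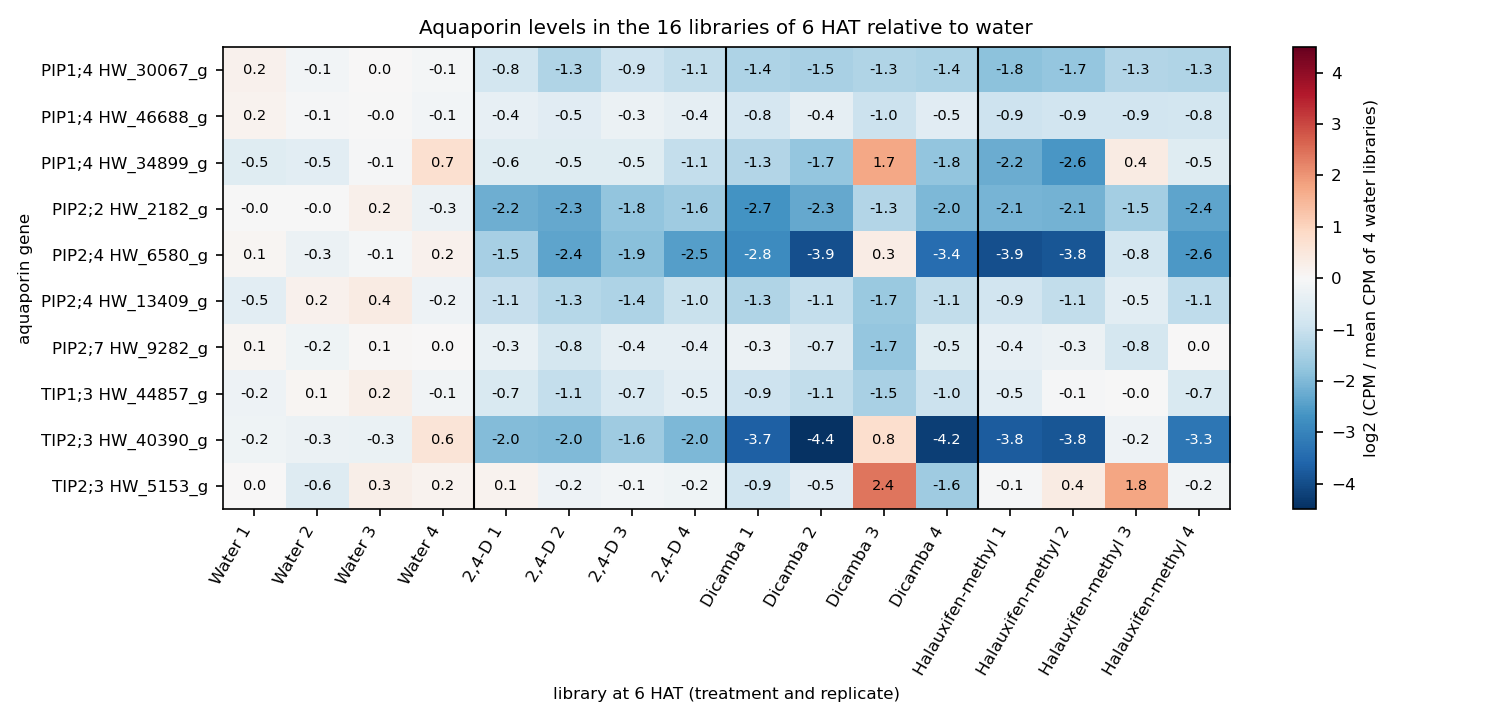
Log2 ratio of CPM to the mean of the 4 water libraries for 10 aquaporin genes (rows) in the 16 libraries of 6 HAT (columns), with the log2 ratio written in each cell and blue for lower, red for higher. HW_6580_g, HW_40390_g and HW_34899_g are blue in dicamba replicates 1, 2 and 4 but red in replicate 3, while HW_30067_g is blue in all 12 herbicide libraries.

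Leaving out dicamba replicate 3 raised the number of aquaporin genes lower after dicamba from 4 to 7 of 16, with HW_34899_g, HW_6580_g and HW_40390_g added. HW_34899_g then turned from 0.10 to −1.57 on the log2 scale (SE 0.29, adjusted p 0.00544). Without halauxifen-methyl replicate 3, 6 genes were lower after halauxifen-methyl in place of 5. The count fell to 3 without water replicate 2 or 3, or without halauxifen-methyl replicate 1, 2 or 4. Shares of all genes called in these fits are not given here, so the changes in count are not read as particular to aquaporins.

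NIP and SIP genes were scarce, and none of them passed the test at 6 HAT against water. HW_48539_g, a NIP1;2 hit, had 7.4, 2.0, 2.8 and 2.4 CPM in water and 11, 12.8, 5.1 and 5.4 CPM after 2,4-D (log2 1.23, SE 0.53, adjusted p 0.147). Without water replicate 1, the highest of its group, it was called (log2 1.87, adjusted p 0.00441). HW_7358_g ranged from 1.7 to 11.3 CPM and HW_17102_g from 4.9 to 15.9 CPM over the 16 libraries of 6 HAT. Every dicamba and halauxifen-methyl library of HW_17102_g was above every water library, but the log2 fold changes of 0.72, 0.51 and 0.55 after 2,4-D, dicamba and halauxifen-methyl had 95% intervals that included 0.

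At 1 HAT 1 aquaporin gene was called. HW_48539_g was at 13.5, 12.3, 10.4 and 6.7 CPM after dicamba against 2.4, 2.4, 2.0 and 1.2 CPM in water, 5.33-fold higher (log2 2.41, SE 0.42, adjusted p 0.0113), where 2.42% of all genes were called and 1.23% were called higher. All dicamba libraries were above all water libraries, and the call was lost without dicamba replicate 1 (log2 2.28, adjusted p 0.0539) or replicate 2 (2.36, adjusted p 0.0553). After 2,4-D 0 of 16 were called (1.82% of all genes), with 1 at an unadjusted p under 0.05, and after halauxifen-methyl 0 of 16 (0.176% of all genes), with 0 at an unadjusted p under 0.05. DESeq2 and edgeR's exact test also called 0 in both. Summed aquaporin levels at 1 HAT were 7329 ± 1574 CPM in water and 6448 ± 1607, 8129 ± 1621 and 7157 ± 1409 CPM after 2,4-D, dicamba and halauxifen-methyl (SD, n = 4), so that the groups overlapped.

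The change of the herbicide effect between 1 and 6 HAT was tested as an interaction, in which 3 aquaporin genes were lower for each herbicide: 3 of 17 for 2,4-D (9.5% of all genes called, 3.79% lower), 3 of 18 for dicamba (5.17% and 1.84%) and 3 of 18 for halauxifen-methyl (5.49% and 2.08%). HW_2182_g passed for all 3, with interaction terms of −1.43 (log2, SE 0.41, adjusted p 0.0347) for 2,4-D, −2.52 (SE 0.45, adjusted p 0.00163) for dicamba and −2.03 (SE 0.37, adjusted p 0.0029) for halauxifen-methyl. HW_30067_g passed for dicamba (−1.65, SE 0.26, adjusted p 0.000643) and halauxifen-methyl (−1.39, SE 0.34, adjusted p 0.0191). HW_46688_g passed for the same herbicides, at −0.91 (SE 0.26, adjusted p 0.0456) and −0.99 (SE 0.25, adjusted p 0.0284). HW_13409_g and HW_40390_g passed for 2,4-D, at −1.06 (SE 0.31, adjusted p 0.0395) and −2.25 (SE 0.57, adjusted p 0.0164). Those of HW_2182_g for dicamba and halauxifen-methyl, HW_30067_g for dicamba and HW_40390_g for 2,4-D were kept whichever single library was left out. Over the 16 fits that each left out 1 library, HW_2182_g and HW_13409_g for 2,4-D were lost in 10 each (adjusted p 0.0501 to 0.0793 and 0.0503 to 0.0871), HW_46688_g in 13 for dicamba (0.0513 to 0.107) and 7 for halauxifen-methyl (0.0534 to 0.0694), and HW_30067_g for halauxifen-methyl without halauxifen-methyl replicate 3 of 1 HAT or replicate 1 of 6 HAT (0.0513 to 0.0539). The count of 3 for 2,4-D went to 1 without water replicate 1 or 2,4-D replicate 1 or 4 of 1 HAT, or without water replicate 2 or 3 or 2,4-D replicate 1, 2 or 3 of 6 HAT, and to 5 without 2,4-D replicate 3 of 1 HAT. For dicamba it went to 5 without dicamba replicate 4 of 1 HAT or replicate 3 of 6 HAT, and for halauxifen-methyl to 1 without the 2 libraries just named and to 5 without replicate 3 of 6 HAT.

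Water leaves themselves changed between the harvests. From 1 to 6 HAT in water, 2 of 16 aquaporin genes rose, where 13.9% of all genes were called and 6.44% rose. HW_40390_g went from 28.0, 54.7, 79.0 and 32.1 CPM to the 6 HAT levels given above, 3.22-fold higher with no overlap (log2 1.69, SE 0.33, adjusted p 0.00552). HW_34899_g went from 49.2, 88.7, 104.9 and 49.6 CPM to 108.3 to 256.4 CPM, 2.098-fold higher (1.07, SE 0.32, adjusted p 0.0479). The call of HW_34899_g was lost without water replicate 1, 2 or 4 of 1 HAT or replicate 3 or 4 of 6 HAT (adjusted p 0.0743 to 0.138). HW_2182_g (log2 0.83, adjusted p 0.0636) and HW_6580_g (0.92, adjusted p 0.0861) also had every 6 HAT library above every 1 HAT library without passing the test.

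The herbicides were compared with each other in 6 comparisons, 3 at each time, that use no water library. 2,4-D is a phenoxyacetic acid, dicamba a benzoic acid and halauxifen-methyl the methyl ester of an arylpicolinic acid, each at its own rate. At 6 HAT 2 of 16 aquaporin genes were higher after 2,4-D than after halauxifen-methyl (8.04% of all genes called, 2.96% higher). HW_46688_g was 1.42-fold higher (log2 0.50, SE 0.12, 95% interval 0.24 to 0.76, adjusted p 0.0283), and HW_48539_g, at 11, 12.8, 5.1 and 5.4 against 2.8, 2.1, 4.0 and 1.2 CPM, was 3.47-fold higher (1.79, SE 0.44, adjusted p 0.0333). Both had all 2,4-D libraries above all halauxifen-methyl libraries. The call of HW_46688_g was lost without 2,4-D replicate 1, 3 or 4 or halauxifen-methyl replicate 1 or 3 (adjusted p 0.0573 to 0.101), and that of HW_48539_g without replicate 1 or 2 of either herbicide (adjusted p 0.0668 to 0.0954).

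Between 2,4-D and dicamba at 6 HAT 0 of 17 aquaporin genes were called (0.519% of all genes), with 1 at an unadjusted p under 0.05, and between dicamba and halauxifen-methyl 0 of 17 (0.489% of all genes), with 2. DESeq2 called 0 and 1 there, and edgeR's exact test 0 in both. Without dicamba replicate 3, HW_40390_g (log2 2.18, SE 0.22, adjusted p 0.000425) and HW_34899_g (0.92, SE 0.18, adjusted p 0.0311) were higher after 2,4-D than after dicamba. Without halauxifen-methyl replicate 3, HW_40390_g was higher after 2,4-D than after halauxifen-methyl (1.70, SE 0.21, adjusted p 0.00121). The TIP gene HW_44857_g was lower in every dicamba library than in every halauxifen-methyl library, by −0.78 on the log2 scale (95% interval −1.27 to −0.30), with an adjusted p of 0.22. For HW_2182_g the differences were 0.04 (interval −0.55 to 0.64) between 2,4-D and dicamba, 0.06 (−0.39 to 0.52) between 2,4-D and halauxifen-methyl, and 0.05 (−0.60 to 0.69) between dicamba and halauxifen-methyl. At 1 HAT 0 genes were called in any pair, out of 16 for 2,4-D against dicamba or halauxifen-methyl and 17 for dicamba against halauxifen-methyl (0.208%, 0.475% and 0.355% of all genes). At an unadjusted p under 0.05 there were 2, 0 and 1, and DESeq2 called 3, 0 and 0, edgeR's exact test 0 in each.

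A further 3 genes have TIP2;1 as their hit, but their description, delta tonoplast integral protein, lies outside the words of the rule. They summed to 3239 CPM in water at 6 HAT, almost as much as the 13 TIP members, and to 38.6%, 37.2% and 39.0% of that after 2,4-D, dicamba and halauxifen-methyl. HW_7586_g carried most of it, with 3374, 3155, 3447 and 2427 CPM in water and 594 to 1561 CPM in the 12 herbicide libraries. Its log2 fold changes were −1.51 (SE 0.15, adjusted p 3.33e-05), −1.53 (SE 0.22, adjusted p 0.000975) and −1.46 (SE 0.32, adjusted p 0.0126). The other TIP2;1 hits were not called after any herbicide. HW_5042_g, at 108 to 148 CPM in water, had log2 fold changes of 0.26, 0.01 and −0.07 (adjusted p 0.366, 0.996 and 0.869). The scarce HW_43636_g had 0.74, 0.91 and −0.84 (adjusted p 0.666, 0.748 and 0.648).

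Other transport genes were followed in 3 lists of best hits. Against water at 6 HAT, 9.41%, 3.96% and 6.13% of all genes tested were called lower after 2,4-D, dicamba and halauxifen-methyl. Those called higher were 10.3%, 5.64% and 8.55%. Plasma membrane proton pumps, which energize transport across that membrane, had 6 genes tested at 6 HAT, of which 4, 1 and 4 fell after 2,4-D, dicamba and halauxifen-methyl and 0 rose. Their summed level was 1998 to 2303 CPM in water and 1053 to 1264, 1208 to 1406 and 1214 to 1696 CPM after the herbicides. In water at 1 HAT that sum was 915 to 1233 CPM. From 1 to 6 HAT in water 4 of 7 tested pump genes rose (13.9% of all genes called, 6.44% higher). Against water of 6 HAT, HW_7350_g (AHA9 hit) fell after each herbicide, by 1.30, 0.99 and 0.70 on the log2 scale (adjusted p 4.64e-05, 0.00327 and 0.0485). Vacuolar proton pumps had 2 higher and 3 lower of 25 after 2,4-D, 1 lower of 23 after dicamba and 0 called of 24 after halauxifen-methyl, and their sums overlapped water. Potassium channels and transporters had 19 genes tested, of which 2 rose and 4 fell with 2,4-D, 2 rose and 2 fell with dicamba, and 2 rose and 3 fell with halauxifen-methyl. The phloem-type channel hits to AKT2, HW_38907_g and HW_51427_g, fell after all 3 herbicides by 1.17 to 2.78 on the log2 scale, and the KAT1 hit HW_50228_g, a guard cell potassium channel, rose by 3.55, 3.41 and 2.85. At 1 HAT 0 genes of these 3 lists were called against water. Of all genes tested, 1.82%, 2.42% and 0.176% were called there after 2,4-D, dicamba and halauxifen-methyl.

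Markers of leaf cell types moved as well at 6 HAT, where the shares of all genes called are those given for the transport lists. All 4 tested mesophyll markers fell after 2,4-D and dicamba and 3 of 4 after halauxifen-methyl, and their summed level went from 13207 to 23899 CPM in water to 5033 to 9081, 3342 to 6864 and 2766 to 7097 CPM. Replicate 3 was the lowest of dicamba at 3342 CPM, and in halauxifen-methyl it was at 6726 CPM, within its group's range. The mesophyll genes tested were hits to LHCB2.1, LHCB2.2, LHCB3 and CA1. The study of these data had already reported LHCB2.1, LHCB2.2 and LHCB3 as photosynthesis genes lowered by the herbicides at 6 HAT. Their fall is therefore no separate measure of mesophyll cells. Phloem markers fell in 3, 0 and 3 of 4 tested, from 485 to 960 CPM in water to 155 to 506, 204 to 640.2 and 241 to 398 CPM, with APL at or under 2 counts. Those that fell were all hits to SWEET12 (HW_45050_g, HW_32277_g and HW_3150_g). SWEET12 hits held 351755 counts over all libraries, against 2208 for SWEET11 and 156 for SUC2, so these values stand for SWEET12 hits. Guard cell markers rose in 2, 2 and 1 of 4, from 50.02 to 69.1 CPM to between 109 and 174 CPM, with FAMA and MYB60 at or under 1 count. The KAT1 hit HW_50228_g, also counted among the potassium channels above, rose after each herbicide. The HT1 hit HW_45192_g rose after 2,4-D and dicamba only (log2 4.74 and 4.38). Another HT1 hit, HW_32700_g, was not called at 6 HAT (log2 −0.24, −0.25 and −0.07). Epidermis markers (1 higher of 7 after 2,4-D, 1 higher and 1 lower after dicamba, 0 after halauxifen-methyl) and the 1 tested xylem marker (not called) had summed levels that overlapped water. Root hair markers stayed at or under 1.76 CPM at 6 HAT, with RHD6 at 0. The part of these markers in the aquaporin results was not tested.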

How the data were processed

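RNA from 32 leaves (8 groups of 4 separate plants, by the sample labels) was sequenced. The authors deposited whole-number read counts per gene, not normalized, made with FastQC 0.11.2, STAR 2.5.2b and HTSeq 0.6.1 per the submitters' processing notes. Reads were assigned to genes predicted with GeneMark on a draft horseweed genome. The strand setting, counting mode and treatment of reads with several matches are not given in the sources used here. Best A. thaliana hits came with the table, and no column of the authors' own comparisons was used. Of 54498 genes, 25585 had no count, and 0 sample columns were left unused.

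Counts were tested with edgeR 4.0.16 (R 4.3.3, limma 3.58.1), 1 fit per comparison for 16 comparisons: filterByExpr with a minimum count of 10, TMM scaling, the quasi-likelihood test and Benjamini-Hochberg adjustment over all genes tested, called at 0.05. SEs and 95% intervals come from that fit, and the procedure was tested on simulated data with known changes. Gene structures came from the deposited annotation, whose exons equal the coding segments, and tables were made with Python 3.11.15 and pandas 2.3.3. CPM values use TMM factors over all 32 libraries. Intervals and floors cover counting error or the spread between these plants only.

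Members and lists were chosen with earlier results of these data known. Named genes were every member called in at least 1 comparison and, per subfamily, the one with the highest CPM per kb. Alternatives were DESeq2 1.42.0, edgeR's exact test, DESeq2 size factors, no filter, at least 10 counts in every library, 1 fit over all libraries, a replicate block, raw library totals for sums, and each library left out. Leaving out replicate 3 of dicamba and of halauxifen-methyl together was added after seeing the data, for the comparison between them, and its values are not given here. Contigs are named by accession, so positions are not printed.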

Additional observations from a re-analysis of the deposited data

Results flagged for a closer look

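In 10 of 96 checks (12 named genes in 8 groups of 4 libraries) the highest or lowest library was far from its mates. For independent, normally distributed values the rule flags about 1 in 20, or 4.8. The check used CPM without logs, and some of these genes moved together within groups, so no excess over that rate is read. Replicate 3 of dicamba at 6 HAT was high in HW_34899_g (525 CPM), HW_6580_g (593 CPM) and HW_40390_g (268 CPM), and replicate 3 of halauxifen-methyl at 6 HAT was high in HW_40390_g (137 CPM), which makes 4 of the 10. The other libraries at 6 HAT were 2,4-D replicate 4, low in HW_34899_g (74.4 CPM), 2,4-D replicate 3, high in HW_40390_g (53.0 CPM), water replicate 4, high in HW_40390_g (237 CPM), water replicate 1, high in HW_48539_g (7.42 CPM), and halauxifen-methyl replicate 1, high in HW_7358_g (11.3 CPM). At 1 HAT 2,4-D replicate 3 was low in HW_44857_g (1323 CPM).

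A tested difference between groups drew attention to the rest. Between 2,4-D and halauxifen-methyl at 6 HAT, HW_46688_g differed by 0.50 and HW_48539_g by 1.79 on the log2 scale. The effect against water differed between 6 and 1 HAT in HW_13409_g (−1.06), HW_2182_g (−1.43) and HW_40390_g (−2.25) for 2,4-D, in HW_2182_g (−2.52), HW_30067_g (−1.65) and HW_46688_g (−0.91) for dicamba, and in HW_2182_g (−2.03), HW_30067_g (−1.39) and HW_46688_g (−0.99) for halauxifen-methyl, all on the log2 scale. Their tests and the libraries they rest on are given with the comparisons above.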

How the results depend on the processing

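With DESeq2 size factors all 16 counts of called aquaporin genes and the 8 summed levels kept their values within 1.5 times or 1 SD. In 1 fit over all 32 libraries, 4 genes in place of 7 were called after 2,4-D at 6 HAT, with HW_6580_g (adjusted p 0.0753), HW_9282_g (0.265) and HW_40390_g (0.147) lost, 0 in place of 2 between 2,4-D and halauxifen-methyl at 6 HAT, 0 in place of 2 in water over time and 1 in place of 3 in the 2,4-D interaction. For water over time DESeq2, the exact test, no filter and at least 10 counts in every library each called 5. DESeq2 called 5 in the 2,4-D and 5 in the dicamba interaction, each 3 in the main test, as well as 3 in place of 0 between 2,4-D and dicamba at 1 HAT and 1 in place of 0 between dicamba and halauxifen-methyl at 6 HAT. No filter gave 1 in place of 2 between 2,4-D and halauxifen-methyl at 6 HAT and 5 in the 2,4-D interaction, and at least 10 counts gave 6 and 5 in the 2,4-D and dicamba interactions. On raw library totals the aquaporin sum after dicamba at 6 HAT was 4729 CPM in place of 3970.

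Same-numbered plants are separate plants, so the numbers were not taken as pairs. Their deviations correlated between −0.324 and 0.394 in the groups compared, and those of differently numbered plants between −0.458 and 0.372. In halauxifen-methyl against water at 1 HAT the highest same-numbered value, 0.394, was above every differently numbered one (highest 0.267). The same held for 2,4-D against dicamba at 1 HAT (0.141 against 0.126) and 6 HAT (0.223 against 0.0843). It also held for dicamba against halauxifen-methyl at 1 HAT (0.275 against 0.186) and water over time (0.0695 against 0.0535), and in no other comparison checked. With the replicate block 1 gene was called between 2,4-D and dicamba at 1 HAT, 0 between 2,4-D and halauxifen-methyl at 6 HAT, 0 in the 2,4-D interaction and 6 in the halauxifen-methyl interaction, and the other 12 counts stayed within 1.5 times. Among single genes the block added HW_40390_g after halauxifen-methyl at 6 HAT (log2 −2.88, SE 0.69, adjusted p 0.0418). It lost HW_46688_g and HW_48539_g between 2,4-D and halauxifen-methyl at 6 HAT (adjusted p 0.138 and 0.0787), HW_46688_g in the dicamba interaction (0.085), HW_34899_g in water over time (0.0934), and HW_2182_g, HW_13409_g and HW_40390_g in the 2,4-D interaction (0.0629, 0.0615 and 0.05003).

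Leaving out 1 library at a time, called genes against water ranged from 0 to 1 for dicamba at 1 HAT and, at 6 HAT, from 6 to 9 for 2,4-D, 4 to 7 for dicamba and 3 to 6 for halauxifen-methyl. They ranged from 0 to 2 for 2,4-D against dicamba and 0 to 2 for 2,4-D against halauxifen-methyl at 6 HAT, from 1 to 3 in water over time, and from 1 to 5, 2 to 5 and 1 to 5 in the 2,4-D, dicamba and halauxifen-methyl interactions. The remaining comparisons had 0 called in each such fit by edgeR's quasi-likelihood test. The one reversal was HW_34899_g after dicamba at 6 HAT, 0.10 with all libraries, which ranged from −1.57 (without dicamba replicate 3) to 0.44 (without water replicate 4). Apart from the filters' own construction, the cause of these changes was not tested. Shares of all genes called are not given for the alternative fits, so no change in count is read as particular to aquaporins.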
